A study of Macaca mulatta with 30 samples.

Results

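The 5-day response to antenatal corticosteroid was compared between lung and hippocampus of the same fetal rhesus macaques. Of the 30 RNA-seq libraries of the series, 18 came from 9 fetuses with a library of both tissues at the same stage, and these were used. They are 3 controls, whose mothers received 1 mL of saline (animals 92, 101 and 113), and 6 fetuses delivered 5 days after the mother received a betamethasone drug intramuscularly. The clinical drug, a mix of betamethasone acetate and betamethasone phosphate at 0.25 mg/kg, was given for animals 115, 120 and 126, and betamethasone acetate alone (Beta-Ac, 0.125 mg/kg) for animals 128, 130 and 136. The drugs were pooled. The drug of each animal follows the lung labels and the hippocampus library names. The treatment and dose fields of the hippocampus libraries give the drugs the other way round, which does not touch the pooled comparison. Each treated fetus was exposed to a single maternal dose. The labels place the lung libraries at gestational day 124 to 130 and the hippocampus libraries of the same animals at day 131 to 136. Since both tissues of a fetus come from the same delivery, the labels differ here and not the age of the tissues. Of 30246 gene identifiers in the lung table and 32386 in the hippocampus table, 20572 were in both. In each tissue, 12917 of them had at least 7 reads in at least 3 of 9 libraries and were tested. With 3 controls, a gene under 7 reads in any control of a tissue could pass there only with treated libraries.

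Betamethasone is a synthetic glucocorticoid that crosses the placenta and binds the glucocorticoid receptor, a transcription factor present in nearly all fetal tissues. In the fetal lung it is given to hasten maturation: surfactant production in alveolar type 2 cells, thinning of the airspace walls and clearance of lung fluid. In the fetal hippocampus, a region rich in both corticosteroid receptors, neurons are still being born, migrating and forming synapses at this stage. The question here was which genes answered differently in the 2 tissues. For each gene the hippocampus response (treated minus control) minus the lung response was estimated within animals, and is called the interaction. A positive interaction means that treatment left hippocampus higher relative to lung than in controls, and a negative one the reverse. It can come from either tissue, so both responses are given. All values are log2 fold changes unless a level is given, and levels are reads per 1 M reads (CPM). A gene was called at p under 0.05, a Storey q under 0.1 and a fold change of at least 1.5.

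The libraries carried the markers of their tissue. The surfactant protein genes SFTPB and SFTPC had at least 39874 reads in every lung library and at most 11 in any hippocampus library. The neuronal transcription factor genes NEUROD1 and NEUROD2 had 0 reads in all lung libraries and at least 849 in every hippocampus library. Lung libraries held 14.4 to 29 M reads and hippocampus libraries 18.3 to 27.2 M. All lung controls (at most 19.6 M) were shallower than all treated lungs (at least 21.7 M), and the part of this gap in the results was not tested. The hippocampus libraries of controls 92 and 101 came from run0024, and those of control 113 and of all 6 treated animals from run1630. Sequencing runs were not given for lung. Treatment in hippocampus was therefore compared within a run against 1 control. The hippocampus library of animal 130 stood apart, with a summed level of the choroid plexus markers of 260 CPM against 41.6 to 56.6 in the others, and of the meninges and fibroblast markers of 1121 CPM against 54 to 377. The lung library of animal 128 had a summed level of airway epithelium markers of 737 CPM against 69 to 334 in the others. On the first principal component of the hippocampus minus lung differences (26.1% of the variance) the controls lay at -47.5, -28.7 and -19.9 and 5 of the treated animals at 12.1 to 32.6, while animal 130 lay at -17.0, next to control 113.

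The response differed between the tissues for 1297 genes, 10.0% of those tested. The hippocampus response lay above the lung response for 654 (5.06%) and below it for 643 (4.98%). Within hippocampus alone 992 genes were differentially expressed, 548 induced and 444 suppressed (7.03% of 14117 tested). With all 15 hippocampus libraries of the series the balance turned: 605 were called, 199 induced and 406 suppressed, and 324 were among the 992. Within lung alone 0 of 13947 passed (0%), with 1142 at an unadjusted p under 0.05, the smallest q at 0.24, and 65 called by DESeq2. The counts of 992 and 0 alone do not compare the tissues, which the interaction does. A fit within the sequencing run of the treated hippocampi also leaves out controls 92 and 101. Its count therefore cannot tell the run apart from the loss of these controls. Within run1630, with control 113 alone, 1 gene was called (0.00780%), NWD2 at 1.88, named here after its value was seen, although 1151 genes had an unadjusted p under 0.05. Without control 113, whose hippocampus shares the run of the treated animals, 1553 genes were called. Drug and run cannot be told apart for controls 92 and 101. Leaving out control 92 left 524 called genes and leaving out control 101 left 671. Without the libraries that stood apart, the count was 1455 without animal 130 and 1475 without animal 128.

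**Figure D1:**
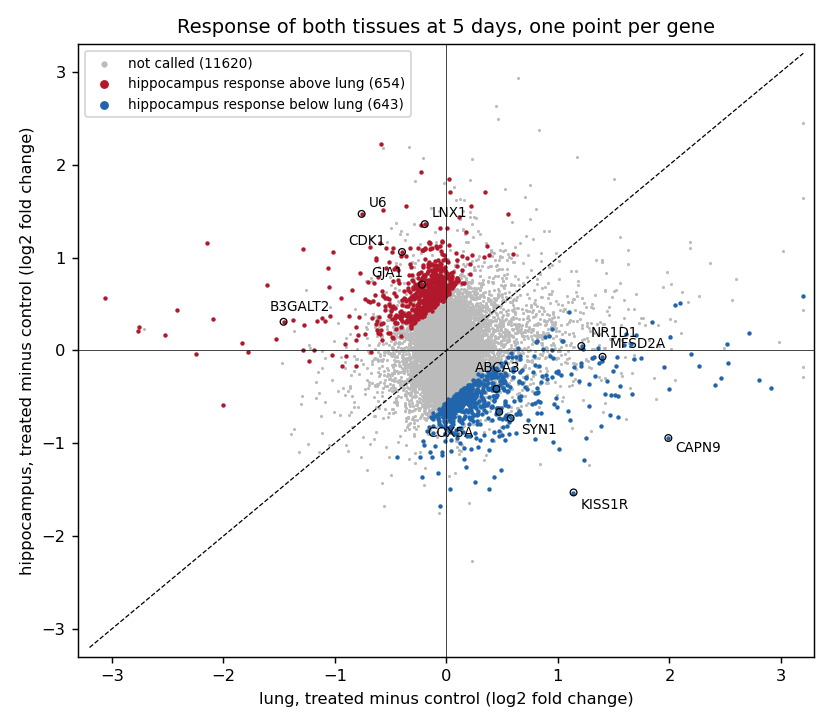
Log2 fold change (treated minus control) in lung (x axis) and hippocampus (y axis) for 12917 genes, 1 point per gene, with values beyond 3.2 drawn at the edge. The 654 genes with the hippocampus response above the lung response lie above the dashed line of equal response and the 643 with it below lie under the line; most lie in the quadrants where the tissues have opposite signs.

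The called genes were mostly those whose estimates had opposite signs in the 2 tissues. Among the 654 genes above, the median was 0.60 in hippocampus and -0.18 in lung, and 588 had opposite signs. Among the 643 below, the medians were -0.55 and 0.22, and 554 had opposite signs. Opposite signs favour a large difference, so these counts follow in part from the test itself. The hippocampus estimate was the larger in size for 556 of the genes above and 469 of those below, against 8676 of all 12917 genes tested. Of the genes above, 319 were also called within hippocampus, as were 239 of those below, all in the direction of the interaction. Of all 12917 genes, 859 were called within hippocampus, 834 of them in the direction of their interaction. The hippocampus response is part of the interaction, so the shared direction is largely built in and is not a test. Across all 12917 genes the responses of the tissues had a Pearson r of 0.06 and a Spearman rho of 0.01, a description over genes that share libraries. The median interaction over all genes was -0.03.

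Both kinds of control gave the same direction for nearly all called genes but not the same size. Against controls 92 and 101, the median difference of the 654 genes above was 0.92, and against control 113 it was 0.51. For the 643 genes below it was -0.87 and -0.67. The direction was the same for 644 and 633 of them. A change of at least 1.5-fold in the same direction was seen against control 113 for 248 of the genes above and 368 of those below. Since all 3 controls chose the genes, neither count is a test. The within-animal difference of treated and control animals did not overlap for 445 genes above (68%) and 286 below (44.5%), against 14.5% of all genes tested. The called genes were chosen on these same differences, so a higher share is built in and is not a test.

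**Figure D2:**
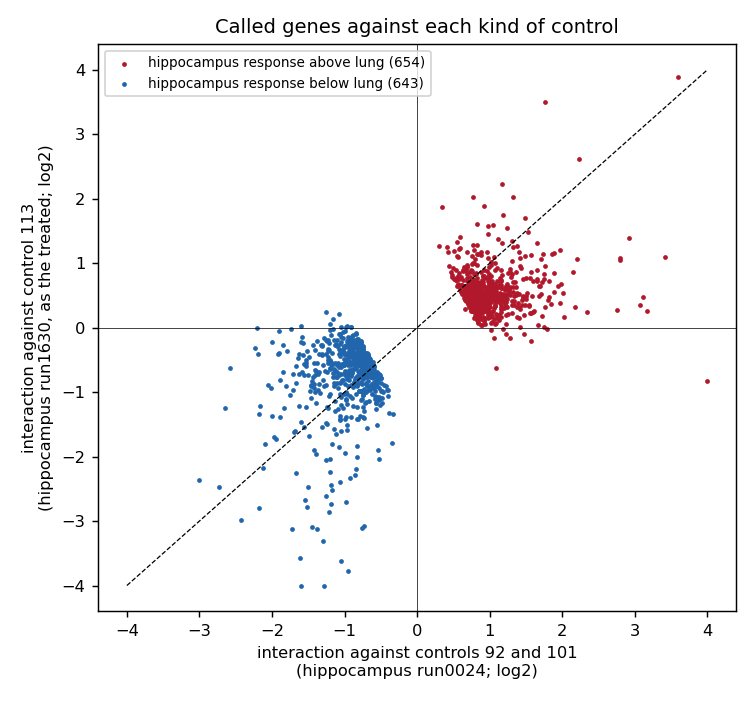
Interaction of the 1297 called genes against controls 92 and 101 (x axis) and against control 113 (y axis), in log2, with values beyond 4 drawn at the edge and the dashed line marking equal size. The genes above have medians of 0.92 and 0.51 and those below of -0.87 and -0.67.

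The 8 named genes furthest above in interaction, by the rule used, included 5 small RNA genes, whose counts are uncertain. They were identifiers of the spliceosomal RNAs U6 (2.45), U1 (1.87) and U4 (1.78), the microRNA gene mml-mir-186 (2.19) and the small nucleolar RNA gene SNORD58 (1.67). The tables hold 681 identifiers named U6, 87 named U1 and 73 named U4, so reads can be shared among near-identical copies, and reads of a host gene can fall on a microRNA or small nucleolar RNA gene. The U6 gene (ENSMMUG00000034697) stood at 7.23, 7.74 and 7.98 CPM in control lungs and 2.14 to 6.6 in treated lungs, and at 0.268, 0.455 and 1.29 CPM in control hippocampi and 1.07 to 2.94 in treated ones. The lung groups did not overlap, while in hippocampus control 113 lay inside the treated range. U1 had 18 reads in all control hippocampi, and U6 was under 7 reads in control hippocampus 92. Neither could pass the minimum in hippocampus without the treated hippocampi, where both were higher. Their calls and non-overlap are therefore tied to that filter.

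The other 3 genes above were protein-coding. LNX1, which encodes a ubiquitin ligase that binds the Numb protein, stood at 33.9, 34.8 and 27.5 CPM in control lungs (92, 101 and 113, the order used throughout) and 25, 28.8 and 29.8 in treated lungs (lowest, median and highest). In hippocampus it stood at 3.86, 3.93 and 17.8 CPM in controls and 18.6, 22.1 and 24.8 in treated animals. Its interaction was 1.90 ± 0.46 (SE, q = 0.0222), but control 113 lay next to the treated hippocampi and far from the other controls, and within run1630 the value was 0.28. B3GALT2, a galactosyltransferase gene, stood at 2.41, 1.95 and 1.72 CPM in control lungs and 0.508, 0.624 and 1.22 in treated lungs. Its hippocampus level was 77.9, 88.7 and 114 CPM in controls and 94.8, 114 and 135 in treated animals. Its lung groups did not overlap and its hippocampus groups did. Its interaction was 1.77 ± 0.30 (q = 0.0126) and 1.25 within run1630. CYP7A1, which encodes the rate-limiting enzyme of bile acid synthesis, had an interaction of 1.78 ± 0.67 (q = 0.0661) on 15 and 50 reads in all control and all treated hippocampi, and 6 of the 9 fits that each left out 1 animal lost its call. It too could not pass the minimum in hippocampus without the treated hippocampi, where it was higher, so its call and non-overlap are tied to that filter.

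**Figure D3:**
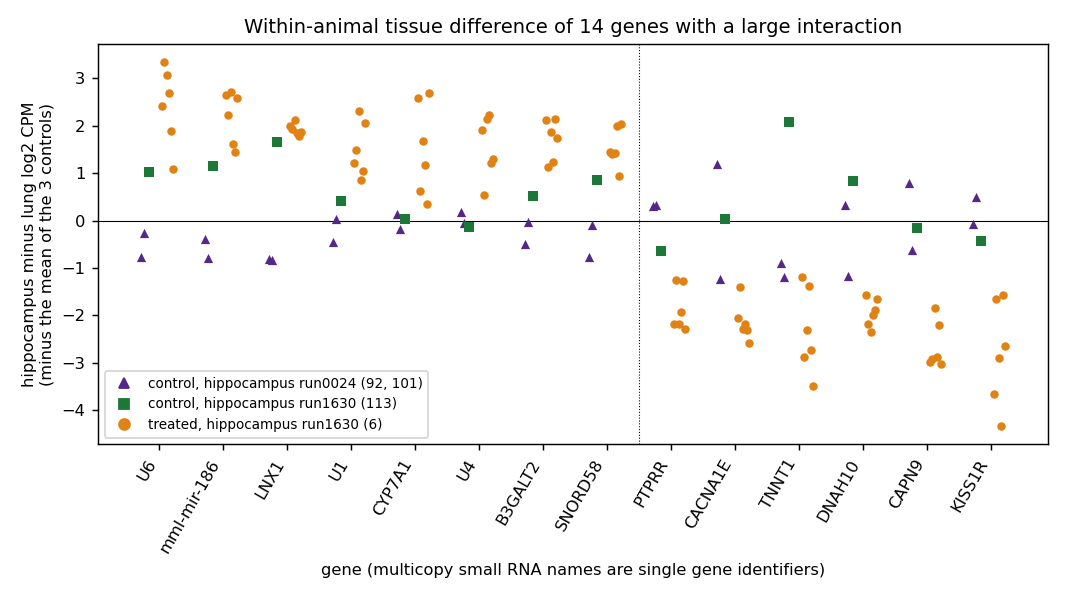
Hippocampus minus lung log2 CPM (prior count of 2) of 14 of the 16 genes with the largest interaction, less the mean of the 3 controls, 1 point per animal. The treated animals lie beyond all controls for every gene, as the choice of the genes requires, and for U6, LNX1 and SNORD58 control 113 lies close to the lowest treated animal.

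Of the 8 genes furthest below, 6 are given here: KISS1R (-2.93), CAPN9 (-2.92), DNAH10 (-2.48), TNNT1 (-2.26), CACNA1E (-2.20) and PTPRR (-2.18). For most of them the lung level was close to the read minimum. CACNA1E, PTPRR, DNAH10 and CAPN9 had 8, 6, 4 and 19 reads in all control lungs together. They could not pass the minimum without the treated lungs, where they were higher. Their lung responses, calls and non-overlap are therefore tied to that filter. CACNA1E, which encodes a calcium channel of neurons, stood at 0, 0.451 and 0.111 CPM in control lungs and 0.371, 0.543 and 0.596 in treated lungs, and at 135, 145 and 132 CPM in control hippocampi against 61, 87.7 and 110 in treated ones. Its hippocampus groups did not overlap.

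PTPRR, a tyrosine phosphatase gene, stood at 41.2, 31.3 and 24.8 CPM in control hippocampi and 9.97, 17.4 and 28.9 in treated ones, at most 0.166 CPM in control lungs and at least 0.211 in treated lungs. CAPN9, a calpain protease gene, stood at 0.195, 0.376 and 0.61 CPM in control lungs and 0.762, 1.41 and 2.69 in treated lungs, and at 1.34, 0.787 and 1.72 CPM in control hippocampi against 0.218, 0.627 and 1 in treated ones. Its interaction was -2.92 ± 0.48 (q = 0.0126), -2.70 within run1630 and between -3.17 and -2.54 in the 9 fits that each left out 1 animal. All these fits used the same read minimum, which CAPN9 passed in lung only with treated libraries. KISS1R, the kisspeptin receptor gene, stood at 1.93, 3.35 and 1.29 CPM in control hippocampi and 0.134, 0.292 and 1.93 in treated ones, with overlapping lung groups. TNNT1, a slow-muscle troponin gene, ranged from 1.61 to 14.5 CPM among control lungs, and its interaction ranged from -4.54 within run1630 to -1.35 without control 113. DNAH10, a dynein gene of motile cilia, had 4 reads in all control lungs, and its treated lungs included animal 128, the highest at 1.15 CPM, whose airway markers were also highest.

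The corticosteroid receptors showed no interaction that passed the test. NR3C1, which encodes the glucocorticoid receptor, stood at 81.2, 99.6 and 129 CPM in control lungs and 91.5, 100 and 123 in treated lungs, and at 25.6, 22.8 and 28.2 CPM in control hippocampi and 23.3, 26.7 and 31.4 in treated ones. Treated animals overlapped controls in both tissues, and its interaction was 0.06 ± 0.13. NR3C2, the mineralocorticoid receptor gene, had an interaction of 0.04 ± 0.28, and HSD11B2, whose enzyme inactivates cortisol, of 0.07 ± 0.35. Of 12 tested receptors, chaperones, coactivators and steroid enzymes 0 were called by edgeR and 0 by DESeq2, 1 had an unadjusted p under 0.05, and the median interaction was -0.06. KLF9, HSD11B1 and TTR matched no identifier of either table and SFTPA1 none of the lung table, so they were not analysed here.

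Of 16 tested glucocorticoid target genes, 0 were called above and 2 below (2 in 16 against 4.98% of all genes), and 8 of 16 values were positive. FKBP5, a chaperone gene induced by the receptor in most tissues, had 6.38, 5.79 and 6.32 CPM in control lungs and 6.33, 6.77 and 7.33 in treated lungs. In hippocampus it had 3.22, 4.39 and 5.45 CPM in controls and 2.5, 3.67 and 7.16 in treated animals. The groups overlapped in both tissues, and the interaction was -0.17 ± 0.36. The interaction of the other fixed targets was -0.49 ± 0.32 for ZBTB16, -0.44 ± 0.24 for PER1 and 0.05 ± 0.35 for SGK1. Within run1630 these 3 values were -1.55, -0.89 and 0.30, and without control 113 they were -0.015, -0.23 and -0.075. The median interaction of the list was -0.04, and -0.21 within run1630, where 5 of 16 were positive. IRS2, an adaptor of insulin signaling, was called at -0.95 ± 0.26 (q = 0.0308). It stood at 6.97, 10.1 and 7.92 CPM in control lungs and 13.3, 15.7 and 18.7 in treated lungs, without overlap, and at 53.9, 59.7 and 29.6 CPM in control hippocampi and 38.9, 46.2 and 54.4 in treated ones. Its lung response of 0.93 ± 0.16 had a q of 0.237, equal to the smallest in lung. MFSD2A, a lysophosphatidylcholine transporter gene listed also among surfactant genes, was called at -1.24 ± 0.55 (q = 0.0959), with 1.69, 1.5 and 3.27 CPM in control lungs and 1.45, 4.02 and 12.7 in treated lungs, and 8 of 9 fits without 1 animal lost its call.

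**Figure D4:**
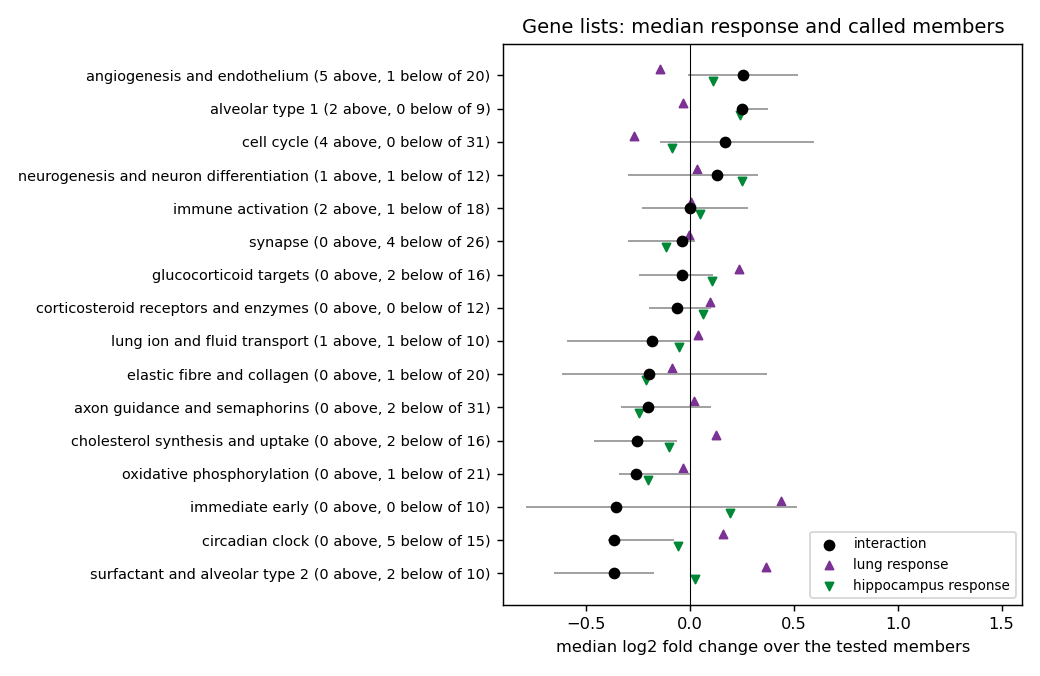
Median log2 fold change over the tested members of 16 gene lists, for the interaction (black circles), the lung response (triangles up) and the hippocampus response (triangles down); grey lines span the medians of the 6 treated animals, and the counts give members called above and below. Circadian clock genes have the most calls below (5 of 15, against 4.98% of all genes) and angiogenesis genes the most above (5 of 20, against 5.06%).

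Surfactant and alveolar type 2 genes had lung responses above their hippocampus responses in 8 of 10 tested members, with a median interaction of -0.37, a median lung response of 0.37 and a median hippocampus response of 0.02. ABCA3 and MFSD2A were called, both below, against 4.98% of all genes. ABCA3, the lipid transporter of lamellar bodies, stood at 218, 211 and 233 CPM in control lungs and 233, 308 and 347 in treated lungs. In hippocampus, where it is also expressed, it stood at 343, 334 and 271 CPM in controls and 223, 236 and 260 in treated animals. All treated lungs were at or above all controls, all treated hippocampi were below all controls, and the interaction was -0.85 ± 0.16 (q = 0.0136), -0.55 within run1630. SFTPB and SFTPC were below the read minimum in hippocampus and were not tested for interaction. In lung SFTPB stood at 3503, 3425 and 4167 CPM in controls and 3796, 4916 and 5595 in treated animals (0.37 ± 0.13, q = 0.444), and SFTPC differed by 0.41 ± 0.22 (q = 0.528). Alveolar type 1 genes had 8 of 9 positive interactions, and 2 were called above (5.06% of all genes). These 2, AQP4 and HOPX, are also astrocyte genes in brain and are described there.

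Cell cycle genes had hippocampus responses above their lung responses in 24 of 31 tested members, with 4 called above and 0 below (5.06% of all genes were called above). The median lung response was -0.27 and the median hippocampus response -0.09, both below 0. The median interaction was 0.17, which became 0.06 without control 113 and 0.35 within run1630, where 27 of 31 were positive. Over the treated animals the median of the list ranged from -0.15 to 0.59. CDK1, the kinase that drives entry into mitosis, stood at 25.7, 21.6 and 24.7 CPM in control lungs and 13.2, 18.5 and 22.8 in treated lungs. In hippocampus it stood at 1.18, 0.994 and 1.25 CPM in controls and 1.13, 2.2 and 3.32 in treated animals. Its interaction was 1.42 ± 0.34 (q = 0.0221), 1.34 within run1630 and 1.28 to 1.58 in the fits without 1 animal. CCNA2, the cyclin A2 gene, stood at 32.8, 28.2 and 32.9 CPM in control lungs and 18.5, 23.7 and 31.3 in treated lungs, and at 17.4, 17.8 and 18.5 CPM in control hippocampi and 21.4, 23.1 and 26.9 in treated ones. The treated hippocampi were all above the controls, including control 113, and the interaction was 0.80 ± 0.14 (q = 0.0126) and 0.83 within run1630. BIRC5, the survivin gene of the mitotic spindle, and RRM2, a subunit of the enzyme that makes deoxyribonucleotides, were called at 0.83 ± 0.29 (q = 0.0533) and 0.76 ± 0.21 (q = 0.0311). Whether fewer dividing cells or less RNA per cell lay behind a lower level in whole tissue cannot be told apart, here and below.

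**Figure D5:**
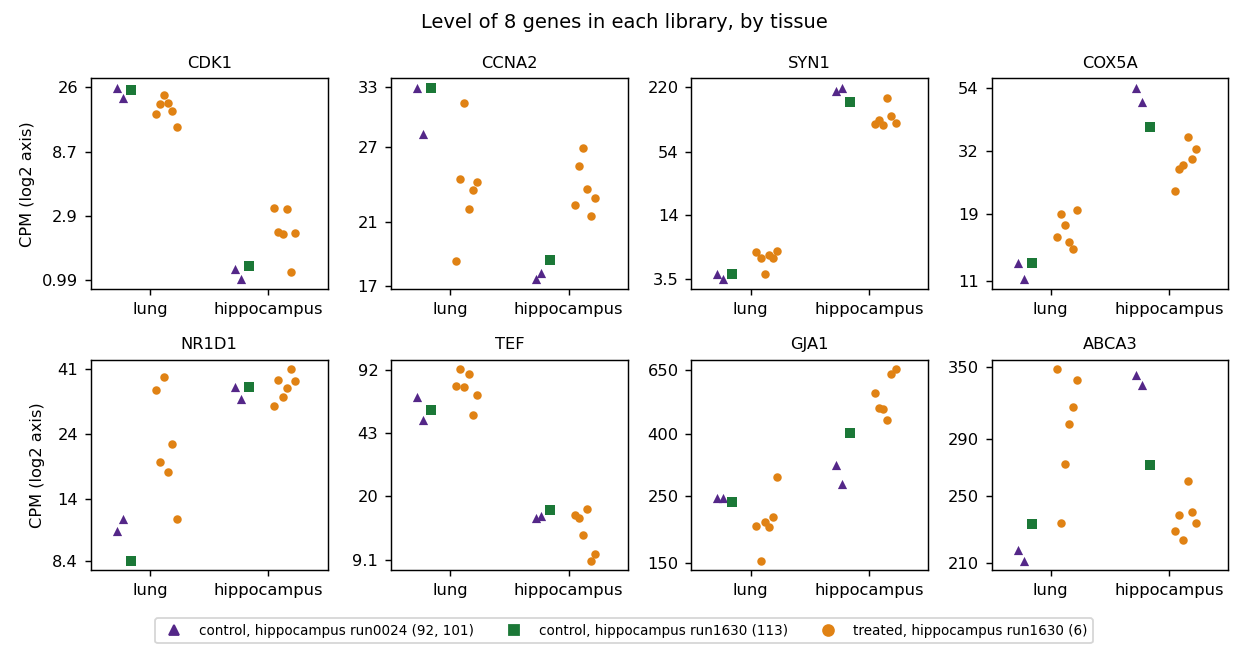
Level in CPM (log2 axis, scaled per gene) of 8 genes in each of the 18 libraries, by tissue; triangles are controls of hippocampus run0024, squares control 113 and circles the 6 treated animals. For CCNA2 the treated hippocampi (21.4 to 26.9 CPM) lie above all 3 controls (17.4 to 18.5), and for NR1D1 the treated lungs (11.9 to 38.4) reach above the controls (8.42 to 11.9) while the hippocampus groups overlap.

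Circadian clock genes lay on the other side, with 11 of 15 interactions negative, 5 called below and 0 above (4.98% of all genes were called below). The median interaction was -0.37, with a median lung response of 0.16 and a median hippocampus response of -0.06, and the median was negative in all 6 treated animals (-0.39 to -0.08) and within run1630 (-0.30), and was -0.23 without control 113. NR1D1, which encodes the clock repressor REV-ERB alpha, stood at 10.7, 11.9 and 8.42 CPM in control lungs and 11.9, 20.6 and 38.4 in treated lungs, and at 35.6, 32.2 and 35.6 CPM in control hippocampi and 30.2, 36.1 and 41 in treated ones. Treated and control hippocampi overlapped fully, and the interaction was -1.08 ± 0.39 (q = 0.0611). TEF and DBP encode related output transcription factors of the clock. TEF was called at -0.68 ± 0.15 (q = 0.0174), and DBP at -0.73 ± 0.25 (q = 0.0533). PER3, a period gene, was called at -0.67 ± 0.17 (q = 0.0239), and the fifth, NPAS2, named after its value was seen, at -0.66. Of the 9 fits without 1 animal, 5 lost the call of NR1D1, 3 that of DBP, 2 that of PER3 and 0 that of TEF. The labels used here give no time of day for delivery.

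Synaptic genes had no common direction: 13 of 26 interactions were positive and 13 negative, the median was -0.04, and 4 were called below, against 4.98% of all genes. SYN1, which encodes the synaptic vesicle protein synapsin I, stood at 203, 215 and 159 CPM in control hippocampi and 96.3, 104 and 174 in treated ones, the highest being animal 128. In lung it stood at 3.84, 3.46 and 3.88 CPM in controls and 3.92, 5.71 and 6.39 in treated animals, without overlap. Its interaction was -1.31 ± 0.23 (q = 0.0126), -0.99 within run1630 and -1.49 to -1.17 in the fits without 1 animal. STX1A, the syntaxin of the release machinery, stood at 86.8, 96.9 and 79.4 CPM in control hippocampi and 48.1, 55.8 and 74.8 in treated ones, and was called at -0.75 ± 0.12 (q = 0.0126), -0.86 within run1630. GRIN2B, an NMDA receptor subunit gene, and SV2B, a synaptic vesicle protein gene, were called at -1.25 ± 0.51 and -1.24 ± 0.55 with at most 0.927 and 1.03 CPM in any lung library, and 7 and 6 of 9 fits without 1 animal lost their calls. SV2B had 12 reads in all control lungs, and GRIN2B was under 7 reads in control lung 113. Neither could pass the minimum in lung without the treated lungs.

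Among genes of neuron production, 12 were tested and 1 was called in each direction (5.06% of all genes above and 4.98% below). ELAVL2, an RNA-binding protein gene of young neurons, stood at 123, 138 and 158 CPM in control hippocampi and 179, 199 and 234.6 in treated ones, without overlap, and was called at 0.67 ± 0.20 (q = 0.039). BCL11B, a neuronal transcription factor gene, was called at -1.26 ± 0.55 (q = 0.0928), a call that 7 of 9 fits without 1 animal lost. It had 19 reads in all control lungs and could not pass the minimum there without the treated lungs. NEUROD1 and DCX, genes of new granule neurons, were at most 2 reads in any lung library and had hippocampus responses of 0.81 ± 0.37 (q = 0.0883) and -0.48 ± 0.19 (q = 0.0651) that were not called. PROX1, the dentate granule cell gene, had an interaction of 0.07 ± 0.49. Of 31 axon guidance genes 21 were negative and 2 were called below, a share near the 4.98% of all genes. SLIT3, a secreted guidance cue, stood at 95.2, 97.7 and 94.2 CPM in control hippocampi and 58.9, 62.8 and 86.4 in treated ones (interaction -0.59 ± 0.14, q = 0.0197). UNC5C, a netrin receptor gene, was called at -1.05 ± 0.42 (q = 0.0793) and was -0.35 within run1630. The calls of SLIT3 and UNC5C were lost in 5 and 7 of 9 fits without 1 animal. The direction of the axon guidance list did not hold within run1630, where 20 of 31 were positive.

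Genes of cholesterol synthesis and uptake were negative in 14 of 16, with a median interaction of -0.26, and 13 of 16 were negative within run1630. Of the 16, 2 were called below, against 4.98% of all genes. LSS, lanosterol synthase, was called at -0.86 ± 0.19 (q = 0.0189) and MVD, mevalonate diphosphate decarboxylase, at -0.86 ± 0.17 (q = 0.0136). MVD stood at 37.3, 32.8 and 25.7 CPM in control lungs and 29.6, 38.5 and 54.9 in treated lungs, and at 27.1, 38.9 and 27.3 CPM in control hippocampi and 17.7, 20.7 and 28.8 in treated ones, with overlap in each tissue alone. Animal 128 had the highest LSS level of the treated animals in both tissues, 65.4 CPM in lung and 76.8 CPM in hippocampus. Oxidative phosphorylation genes were negative in 14 of 21 (median -0.26), with 1 called below against 4.98% of all genes, and within run1630 the median was -0.02, with 12 of 21 negative. COX5A, a subunit of cytochrome c oxidase, stood at 12.7, 11.1 and 12.7 CPM in control lungs and 14.3, 16.6 and 19.7 in treated lungs, and at 54, 48 and 39.1 CPM in control hippocampi and 23.1, 29.4 and 36 in treated ones. Neither tissue overlapped, and the interaction was -1.13 ± 0.20 (q = 0.0126) and -0.81 within run1630.

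Vascular genes had 5 members called above and 1 below of 20 tested (5.06% and 4.98% of all genes), but their median turned from 0.25 to -0.05 within run1630. ANGPT1, a ligand that stabilizes vessels, stood at 27.4, 21.4 and 43.9 CPM in control hippocampi and 39.8, 54.2 and 63.5 in treated ones, with control 113 inside the treated range (interaction 0.94 ± 0.22, q = 0.0213). KLF4 and ERG, transcription factor genes active in endothelium, were called at 0.80 ± 0.31 (q = 0.0732) and 0.64 ± 0.19 (q = 0.0365), and ERG was 0.22 within run1630. KLF4 lost its call in 5 of 9 fits without 1 animal and ERG in 2. VWF, which encodes the clotting protein von Willebrand factor, was called below at -0.79 ± 0.28 (q = 0.0561), a call that 4 of these fits lost. It fell in hippocampus, from 29.2, 33 and 51.1 CPM in controls to 10.5, 16.6 and 25.4 in treated animals, without overlap. Among collagen and elastic fibre genes COL5A1, a fibrillar collagen gene, was called at -1.28 ± 0.32 (q = 0.0225), with 15 of 20 negative. Within run1630 COL5A1 was -0.69 and the list turned, from a median of -0.20 to 0.04, with 11 of 20 positive. Of 10 tested ion transport genes 1 was called above and 1 below (5.06% and 4.98% of all genes). Of the 10, 6 were negative, and the median interaction was -0.18. The call above was SLC12A2, a chloride importer, at 0.69 ± 0.21 (q = 0.0363). Of 18 immune genes 2 were called above and 1 below (5.06% and 4.98% of all genes). Those above were CCL2, a monocyte chemokine, at 1.55 ± 0.57 (q = 0.0621) with 11 reads in all control hippocampi, and CXCR4, a chemokine receptor, at 0.76 ± 0.19 (q = 0.023). CCL2 could not pass the minimum in hippocampus without the treated hippocampi, where it was higher, so its call is tied to that filter.

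Of 14 astrocyte markers 8 were tested, 4 were called above (5.06% of all genes) and 0 below, and 5 were positive. Their summed hippocampus level was 4221 and 4479 CPM in controls 92 and 101, 6306 in control 113 and 5602 to 7668 in treated animals, so control 113 lay inside the treated range. GJA1, the gap junction gene connexin 43, stood at 317, 273 and 405 CPM in control hippocampi and 446, 518 and 655 in treated ones, without overlap, and at 239 to 246 CPM in control lungs and 152, 202 and 289 in treated lungs (interaction 0.95 ± 0.16, q = 0.0126, and 0.63 within run1630). AQP4, a water channel of astrocytes and airway cells, was at 484, 471 and 849 CPM in control hippocampi and 754, 1133 and 1416 in treated ones (0.74 ± 0.27, q = 0.0622). HOPX was called at 0.83 ± 0.25 and SLC1A3, an astrocyte glutamate transporter, at 0.71 ± 0.30. The calls of SLC1A3, AQP4 and HOPX were lost in 7, 5 and 2 of 9 fits without 1 animal, and that of GJA1 in 0. P2RY12, a microglial receptor gene, stood at 45.6, 25.5 and 77 CPM in control hippocampi and 60.4, 76.9 and 109 in treated ones (0.97 ± 0.24, q = 0.0234), with 5 of 7 microglial markers negative.

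The summed level of airway epithelium markers overlapped between the lung groups, at 69 to 217 CPM in controls and 142 to 737 in treated lungs (142 to 334 without animal 128). Of 16 listed, 6 were tested for interaction, all 6 interactions were negative with a median of -1.37, and 2 were called below, against 4.98% of all genes. The median was -0.77 without control 113 and -2.81 within run1630. SCGB3A1, a secretoglobin of airway secretory cells, stood at 2.34, 6.39 and 1.66 CPM in control lungs and 3.66, 7.68 and 102 in treated lungs, and DNAH5, a dynein gene of motile cilia, at 2.54, 16.7 and 1.22 CPM against 7.28, 12.8 and 50.2. The groups overlapped for both, and their interactions were -2.81 ± 1.09 (q = 0.0718) and -2.25 ± 0.83 (q = 0.0623), calls that 6 and 4 of 9 fits without 1 animal lost. The part of airway, choroid plexus or astrocyte content in the other results was not tested.

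The mean response of both tissues was estimated as well, which can be carried by 1 tissue alone. It was called for 105 genes (0.813%), 77 induced and 28 suppressed, and 0 were called within run1630, with 929 at an unadjusted p under 0.05. Leaving out control 92, control 101, animal 126 or animal 136 left 0 calls (1715 to 2209 at an unadjusted p under 0.05), leaving out 115 left 2, leaving out 120 left 20, leaving out 128 left 196, and leaving out control 113 left 307. The 4 named genes with the smallest p in each direction were NR1D2, POLR3G, GET1 and SNORD45A among the positive and PRKAR2B, PI4KA, SCFD1 and GIT2 among the negative. NR1D2, the REV-ERB beta clock gene, was called at 0.63 ± 0.11. It stood at 16, 18.9 and 18.7 CPM in control lungs and 25.8, 29.8 and 41.7 in treated lungs, without overlap, and at 85.9, 84.6 and 127 CPM in control hippocampi and 121, 135 and 142 in treated ones. POLR3G, an RNA polymerase III subunit gene, was called at 0.76 ± 0.13 and at the same time had an interaction of 0.80 ± 0.20 (q = 0.0222), with 15.2, 16.6 and 28.2 CPM in control hippocampi and 37.6, 43 and 52.6 in treated ones. PRKAR2B, a regulatory subunit of protein kinase A, stood at 106, 105 and 156 CPM in control lungs and 83.3, 94 and 115 in treated lungs, and at 114, 122 and 85 CPM in control hippocampi and 58, 64.5 and 70.9 in treated ones. Its mean response was -0.53 ± 0.07. That of PI4KA was -0.53 ± 0.08, that of SCFD1 -0.57 ± 0.09 and that of GIT2 -0.46 ± 0.08. All had q = 0.0623 but were short of the 1.5-fold threshold, as was GET1 at 0.38 ± 0.06. GET1 had a response of 0.04 ± 0.11 in lung and 0.72 ± 0.11 in hippocampus, with a called interaction of 0.68 ± 0.17. SNORD45A, a small nucleolar RNA gene with uncertain counts, was called at 1.13 ± 0.22.

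Both drugs were also set against the same controls, at the different doses given above. The interaction was called for 1566 genes with the clinical drug animals alone and for 1 with the Beta-Ac animals alone. Of the genes called with both drugs pooled, 635 above and 624 below could be estimated with each drug. Their medians were 0.82 and -0.84 with the clinical drug and 0.78 and -0.72 with Beta-Ac. Each had the same direction with both drugs, but both drugs chose the genes, so this is not a test. The difference itself, a tissue by drug term among the 6 treated animals, all of run1630, was called for 0 of 12745 genes by edgeR. At an unadjusted p under 0.05 there were 492 genes, where 5% of those tested is 637. Of the 72 named genes tested, 6 had an unadjusted p under 0.05 for this term and 0 passed. These 6 follow, picked by that p. MFSD2A had an interaction of -0.34 with the clinical drug and -1.99 with Beta-Ac, NR1D1 of -1.58 and -0.57, COL5A1 of -1.66 and -0.89, HOPX of 1.14 and 0.54, COX5A of -1.34 and -0.91 and NR1D2 of -0.56 and -0.17. Both drug values of a gene share the 3 controls. The Beta-Ac group includes animals 128 and 130, whose libraries stood apart.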

How the data were processed

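Total RNA of fetal rhesus lung and hippocampus was sequenced, and the authors deposited 1 table of counts per tissue, whole reads per Ensembl gene before normalization. Their processing notes name Bowtie 1.2.1.1 and featureCounts 1.5.1 for lung and Bowtie2, featureCounts and edgeR without versions for hippocampus, and the study's methods name Bowtie 2 and MMUL1.0. The tables use different gene annotations, so only identifiers in both were compared, and a constant difference per gene cancels from the interaction. Poly(A) RNA was selected for the hippocampus libraries, per the labels. Symbols came from a reference table of Ensembl identifiers, which named 15769 of 20572.

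The members and gene lists were chosen with earlier results of these data known. Counts of the 18 libraries were fitted with edgeR 4.0.16 (R 4.3.3), TMM scaling and the quasi-likelihood F-test, with animal as block, tissue and a tissue by treatment term (7 residual degrees of freedom). Each tissue was also fitted alone, and the mean response with limma 3.58.1 (trend) on the mean log2 CPM of both tissues. Standard errors come from the test statistic. Fold changes use a prior count of 0.125. Animals pair the libraries by their labels: deviations from the group means correlated at 0.06 to 0.24 between the tissues of an animal, which for all 9 exceeded those with the other animals of its arm. The procedure was tested on simulated data. The treated and control groups are separate animals, each with both tissues. The interaction p-values measure the spread between animals of the within-animal tissue difference. Among the controls this spread also holds the difference in hippocampus sequencing run. DESeq2 1.42.0 was an alternative.

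Named genes are the 8 with a symbol and the largest interaction in each direction among called genes whose within-animal differences did not overlap, the 4 of smallest p per direction for the mean response, 17 fixed genes, and up to 4 called members of each list, of which 4 genes are not reported here and stay in every count. Alternatives were RLE scaling, 3 filters, Benjamini-Hochberg adjustment, no fold threshold, DESeq2, the likelihood ratio test, limma on within-animal differences, no animal block, 1 drug, run1630, all 15 hippocampus libraries and each animal left out. The drug term was added after seeing the data. No gene sequence was used.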

Additional observations from a re-analysis of the deposited data

Results flagged for a closer look

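In 152 sets of 6 treated libraries (the named genes in each tissue), 18 had a highest or lowest library set apart from the others. The cut-off used gives about 1 in 20 for independent, normally distributed values. These sets share the same 6 animals, and most genes were picked from these data, so the count is not a test. Animal 128 accounted for 12 of the 18, 7 in hippocampus and 5 in lung, and was the highest library each time. In its hippocampus, DNAH10 stood at 33.4 CPM, LSS at 76.8, MFSD2A at 53.5, PI4KA at 220, SCFD1 at 30.5, SLIT3 at 86.4 and SYN1 at 174. In its lung, DNAH10 stood at 1.15 CPM, DNAH5 at 50.2, LSS at 65.4, SCGB3A1 at 102 and TF at 225. The hippocampus levels of PI4KA, SCFD1, SLIT3 and SYN1 in animal 128 lay nearest to the controls. Animal 130 was set apart by mml-mir-186 (3.19 CPM) in lung and by SLC12A2 (156 CPM) in hippocampus, animal 126 by BIRC5 (4.76 CPM) and SNORD45A (1.18 CPM) in lung and by HOPX (303 CPM) in hippocampus, and animal 115 by C1QL2 (3.3 CPM) in lung.

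The responses of the 2 tissues differed by the interaction test for 1297 genes, which include 60 of the genes named here. Those furthest above were U6 (2.45), mml-mir-186 (2.19), LNX1 (1.90), U1 (1.87), CYP7A1 (1.78), U4 (1.78), B3GALT2 (1.77), SNORD58 (1.67), CCL2 (1.55), CDK1 (1.42) and SLC4A1 (1.04). Between 0.60 and 1 above lay P2RY12 (0.97), GJA1 (0.95), ANGPT1 (0.94), GRIK4 (0.90), BIRC5 (0.83), HOPX (0.83), KLF4 (0.80), POLR3G (0.80), CCNA2 (0.80), CXCR4 (0.76), RRM2 (0.76), AQP4 (0.74), SLC1A3 (0.71), SLC12A2 (0.69), GET1 (0.68), ELAVL2 (0.67) and ERG (0.64). Those furthest below were KISS1R (-2.93), CAPN9 (-2.92), SCGB3A1 (-2.81), DNAH10 (-2.48), C1QL2 (-2.34), TNNT1 (-2.26), DNAH5 (-2.25), CACNA1E (-2.20) and PTPRR (-2.18). Next below were SYN1 (-1.31), COL5A1 (-1.28), BCL11B (-1.26), GRIN2B (-1.25), MFSD2A (-1.24), SV2B (-1.24), COX5A (-1.13), NR1D1 (-1.08) and UNC5C (-1.05). The others below were TF (-0.97), PDE10A (-0.95), IRS2 (-0.95), SLC4A5 (-0.94), LSS (-0.86), MVD (-0.86), ABCA3 (-0.85), VWF (-0.79), STX1A (-0.75), DBP (-0.73), TEF (-0.68), PER3 (-0.67), PRKCD (-0.59) and SLIT3 (-0.59). None of the 60 was called within run1630 by edgeR, where the 1151 genes at an unadjusted p under 0.05 are counted over all genes.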

How the results depend on the processing

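The count of genes with an interaction stayed within 1.5 times the main count of 1297 under RLE scaling, the 3 other filters, Benjamini-Hochberg adjustment, DESeq2, the likelihood ratio test, limma on within-animal differences and the clinical drug alone, and rose to 3129 with no fold threshold. It was 1 with the Beta-Ac animals alone and 1 within run1630. Without each animal in turn it ranged from 524 to 1553. With no replicate block it was 1180, and 14 of the 60 called genes named lost the call. In lung the count of 0 became 65 with DESeq2, 46 with the likelihood ratio test and 3 with Beta-Ac alone, and ranged from 0 to 13 without 1 animal. In hippocampus the count of 992 became 4148 with no fold threshold, 605 with all 15 hippocampus libraries, 0 with Beta-Ac alone (edgeR) and 0 within run1630, where 868 had an unadjusted p under 0.05, and ranged from 465 to 1644 without 1 animal. The mean response count of 105 became 201 with edgeR on the 4 groups, 16 with Benjamini-Hochberg adjustment, 1103 with no fold threshold, and 0 with Beta-Ac alone or within run1630, and ranged from 0 to 307 without 1 animal. The cause of these changes was not tested.

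None of the 60 called genes reversed under any alternative that could estimate it. Genes that were not called changed sign: SGK1 to -0.00624 with no replicate block and to -0.053 with the clinical drug alone, NR3C2 to -0.041 with the clinical drug alone, FKBP5 to 0.21 and PROX1 to -0.26 with Beta-Ac alone, and HSD11B2 to -0.22 and PRKAR2B (interaction) to 0.31 within run1630. Without 1 animal, NR3C1 ranged from -0.044 to 0.22, NR3C2 from -0.090 to 0.18, SGK1 from -0.092 to 0.25, HSD11B2 from -0.20 to 0.24 and PROX1 from -0.048 to 0.42.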

Other observations

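Other lists had few calls. Of 10 tested immediate early genes 0 were called by edgeR or DESeq2, with 0 at an unadjusted p under 0.05. Their median lung response was 0.44 and their median hippocampus response 0.19. Their summed lung level was 195 to 428 CPM in controls and 225 to 851 in treated animals. Of 9 tested markers of hippocampal neurons, 1 was called below and 1 above (4.98% and 5.06% of all genes). They were C1QL2, a dentate granule cell gene, at -2.34 ± 0.97 and GRIK4, a kainate receptor gene, at 0.90 ± 0.25. The summed hippocampus level of the markers was 1011 to 1211 CPM in controls and 1075 to 1274 in treated animals. C1QL2 had 8 reads in all control lungs and could not pass the read minimum without the treated lungs, where it was higher. PDE10A, a phosphodiesterase gene of striatal neurons, was called at -0.95 ± 0.33, with 14, 20.9 and 15.9 CPM in control hippocampi and 8.51 to 14.4 in treated ones. SLC4A5, a bicarbonate transporter gene of choroid plexus, was called at -0.94 ± 0.28. Of 8 tested choroid plexus markers 5 were negative and 3 positive. Their median hippocampus response was 0.36, against -0.59 for SLC4A5. PRKCD, a kinase gene listed for thalamus, was called at -0.59 ± 0.24, while 3 of 4 tested thalamus and habenula markers were positive. TF, the transferrin gene of oligodendrocytes, was called at -0.97 ± 0.32. It had 225 CPM in the lung of animal 128 and 32.6 to 51.2 in control lungs. SLC4A1, the anion exchanger of red cells, was called at 1.04 ± 0.45, and 0.05 within run1630. It was under 7 reads in control hippocampi 92 and 113, so it could pass in hippocampus only with treated libraries. Meninges and muscle markers had 0 calls by edgeR or DESeq2, with 0 at an unadjusted p under 0.05.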
